A study of Homo sapiens with 4 samples.

Results

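The ERK response and feedback genes examined here were 10 genes chosen by name, EGR1, EGR2, EGR3, DUSP4, DUSP5, DUSP6, SPRY1, SPRY2, SPRY4 and SPRED1, out of 25702 genes with a deposited count. Each was found by its NCBI gene number, and earlier results of these data were known when they were chosen. They were measured by whole transcriptome sequencing (WTS) in K562, an established chronic myeloid leukemia cell line of erythroid character that carries the BCR::ABL1 fusion. Cells transfected with the LeGO-iG2 vector expressing RUNX1::ERG, a fusion that keeps the Runt and Ets DNA-binding domains, were compared with cells given the empty vector, with 2 libraries in each group and no further treatment in either. Transfection was transient, the general protocol places assays at 72 h, and no sorting of transfected cells before RNA extraction is described, so untransfected cells may be included in both groups.

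ERK is the last kinase of the RAS-RAF-MEK-ERK relay, which BCR::ABL1 drives in chronic myeloid leukemia cells through adaptor proteins. Active ERK switches on immediate-early transcription factors such as the EGR zinc finger proteins. It also induces its own brakes. DUSP phosphatases remove the activating phosphates from ERK and other MAP kinases, while SPRY and SPRED proteins act further up, on the activation of RAS and RAF. Transcripts of these genes are often read together as the output of the relay, but each also has regulators of its own.

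With RUNX1::ERG, 3 of the 7 ERK brakes were called, and not in one direction. DUSP5, a nuclear phosphatase that inactivates ERK and holds it in the nucleus, rose 5.06-fold, and DUSP4, a nuclear phosphatase of ERK and other MAP kinases, rose 6.35-fold from a very low level. SPRY4, an inhibitor of receptor signalling to RAS, fell to 0.503 of its empty vector level. EGR1 showed no difference past the spread between libraries. Of the 9 genes that could be tested, 2 were called higher and 1 lower in the quasi-likelihood test of edgeR (adjusted p below 0.05), against 4.79% of all 15394 tested genes called in either direction, 3.64% higher and 1.15% lower. Because the genes were chosen with earlier results of these data known, this comparison is a description and no test of the group. The test covers all genes together because an exact permutation test of 2 libraries against 2 cannot go below p = 0.333.

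**Figure D1:**
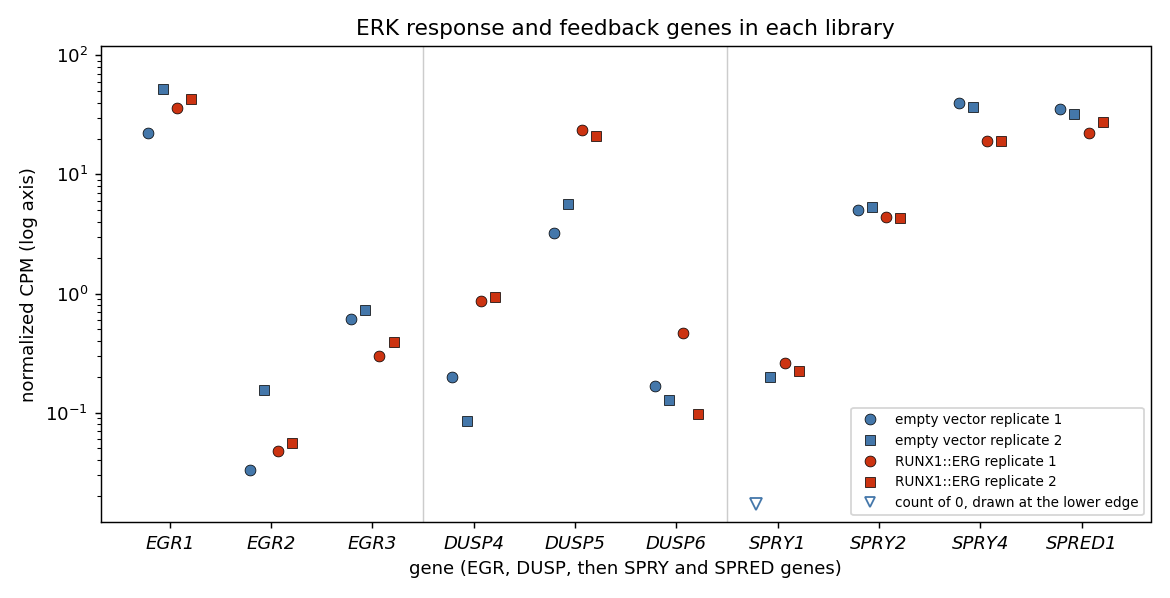
Normalized CPM (log axis) of the 10 genes in each of the 4 libraries, with empty vector in blue and RUNX1::ERG in red, circles for replicate 1 and squares for replicate 2, and an open triangle at the lower edge for the SPRY1 count of 0. DUSP4 and DUSP5 sit higher in both RUNX1::ERG libraries and SPRY4 sits lower, while the EGR1 values of the 2 groups overlap.

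The library totals ran from 59695387 to 82352144 counts, and values are given as normalized CPM, the counts scaled by TMM to a common effective library size. A count of 0 allows up to 3 counts, or 0.0364 to 0.0503 CPM, for counting error only. Between 66.7% and 68.9% of counts from 1 to 10 were even, an excess that was not traced further, and a fit with all counts halved was run because of it. As a check of the labels, ERG was at 0.0664 and 0.0567 normalized CPM under empty vector and 954 and 379 with RUNX1::ERG replicates 1 and 2, so replicate 1 held 2.52 times as much of it. All 9 erythroid markers of K562 were tested, and their summed level ran from 11921 to 12553 normalized CPM with the empty vector and from 13011 to 14117 with RUNX1::ERG. Of these, edgeR called EPOR, which was higher, and DESeq2 called EPOR and HBZ, an embryonic globin gene that was lower (log2 fold change -0.59, edgeR adjusted p = 0.05003). In bulk RNA, more cells that express a gene and more RNA of that gene per cell cannot be told apart. The study describes the replicates as biological, and they differed well beyond counting noise, with a chi-square per degree of freedom of 88.7 between the empty vector libraries and 67.6 between the RUNX1::ERG libraries.

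EGR1 (NCBI gene 1958, GRCh37 chromosome 5, 137801168 to 137804992) encodes an immediate-early transcription factor that is a common readout of ERK activity. Its promoter is printed because it holds CArG boxes, a type of element through which ERK can act on the gene. The sequence is the 250 bases before the RefSeq start on the plus strand, chr5:138465229-138465478 of GRCh38.p14, with CArG boxes in capitals, the sites bound by serum response factor (SRF) together with ETS-family partners that ERK phosphorylates.
EGR1: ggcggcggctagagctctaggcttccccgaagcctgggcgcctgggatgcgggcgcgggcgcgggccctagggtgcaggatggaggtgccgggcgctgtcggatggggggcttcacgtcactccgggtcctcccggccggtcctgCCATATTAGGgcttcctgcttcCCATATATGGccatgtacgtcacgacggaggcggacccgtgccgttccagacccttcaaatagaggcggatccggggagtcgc
The 2 boxes begin 105 and 83 bases before the start. The RefSeq promoter table gave 12 windows, each of 250 bases before and 50 after a start, for 7 of the 10 genes (EGR1, EGR2, DUSP6, SPRY1, SPRY2, SPRY4 and SPRED1). A CArG box was found in 2 of the 12 windows, for EGR1 and EGR2, and in 1.29% of all 35116 windows in the table.

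EGR1 was at 22.4 and 52.5 normalized CPM under empty vector and 36.3 and 43.4 with RUNX1::ERG. Both RUNX1::ERG libraries lay between the 2 empty vector libraries. The group means were 37.4 ± 21.3 and 39.8 ± 5.01 (SD, n = 2), and the log2 fold change (RUNX1::ERG over empty vector) was 0.09 (95% interval -0.61 to 0.78, edgeR adjusted p = 0.93). The empty vector libraries differed 2.34-fold in EGR1, a gap as large as that of only 0.671% of the 4472 tested genes within 2-fold of its mean level. The comparison depended on them: without empty vector replicate 2 the log2 fold change was 0.83 (edgeR adjusted p = 0.016), and without empty vector replicate 1 it was -0.40 (adjusted p = 0.36). A change of EGR1 in either direction was therefore not resolved with these libraries.

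EGR3 (NCBI gene 1960, chromosome 8, 22545172 to 22550993), a related factor that is itself a target of EGR1 in other cells, was low throughout. It had 37 and 51 counts with the empty vector and 25 and 28 with RUNX1::ERG, or 0.614 and 0.723 against 0.297 and 0.389 normalized CPM. Both RUNX1::ERG values lay below both empty vector values. The log2 fold change of -0.96 (standard error, SE, 0.51) did not pass the test (edgeR adjusted p = 0.37), with a 95% interval of -2.10 to 0.17. EGR2 (NCBI gene 1959, chromosome 10, 64571756 to 64578927), known for its role in myelination and in lymphocytes, had 2 and 11 counts against 4 and 4. It was the only one of the 10 genes removed by the filter on low counts, which asks for 0.138 CPM in at least 2 libraries. EGR1 made up between 97.2% and 99.1% of the summed normalized CPM of the 3 EGR genes in each library.

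DUSP5 (NCBI gene 1847, chromosome 10, 112257665 to 112271291) had 193 and 398 counts with the empty vector, against 2002 and 1522 with RUNX1::ERG. In normalized CPM these were 3.20 and 5.64 against 23.7 and 21.2. The lowest RUNX1::ERG value was well above the highest empty vector value. The 2 RUNX1::ERG libraries differed 1.12-fold in DUSP5 and 2.52-fold in ERG, and a dependence on the level of the fusion was not tested. The means were 4.42 ± 1.73 and 22.5 ± 1.82 (SD, n = 2), the log2 fold change was 2.34 (SE 0.28, 95% interval 1.72 to 2.96) and the adjusted p was 0.00096 from edgeR. The call held with each library left out in turn, at log2 fold changes from 1.99 without empty vector replicate 1 to 2.81 without empty vector replicate 2. The pseudogene DUSP5P1 had a count of 0 in all 4 libraries. No other GENCODE gene overlaps DUSP5 on GRCh37.

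DUSP4 (NCBI gene 1846, chromosome 8, 29190581 to 29208201) had 12 and 6 counts with the empty vector and 73 and 67 with RUNX1::ERG. These were 0.199 and 0.0851 against 0.866 and 0.932 normalized CPM, so the groups did not overlap but the gene stayed under 1 CPM. The log2 fold change was 2.67 (SE 0.59, 95% interval 1.36 to 3.98, edgeR adjusted p = 0.030). DUSP4 cleared the filter on low counts in both RUNX1::ERG libraries but in 1 of the empty vector libraries. With fewer libraries the size of the change remained and the call did not, at 2.71 (adjusted p = 0.14) without RUNX1::ERG replicate 1 and 2.60 (adjusted p = 0.074) without RUNX1::ERG replicate 2. It was 3.37 without empty vector replicate 1 and 2.16 without empty vector replicate 2, and called in both.

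DUSP6 (NCBI gene 1848, chromosome 12, 89741012 to 89746278), the cytoplasmic phosphatase most specific for ERK and a standard marker of its activity in many tissues, was barely detected. Its counts were 10 and 9 with the empty vector and 39 and 7 with RUNX1::ERG, or 0.166 and 0.128 against 0.463 and 0.0974 normalized CPM. RUNX1::ERG replicate 1 was the highest and RUNX1::ERG replicate 2 the lowest of the 4. The log2 fold change of 0.95 (SE 0.80, edgeR adjusted p = 0.61) became -0.58 without RUNX1::ERG replicate 1. DUSP6 shares 1105 exon bases with a long noncoding RNA gene on the opposite strand, and strand settings of the counting are not given in the sources used here. At this depth no change of DUSP6 was detectable in either direction, since the 95% interval ran from -0.83 to 2.72. DUSP5 made up between 89.8% and 96.4% of the summed normalized CPM of the 3 phosphatase genes in each library, and that sum was 3.57 and 5.86 with the empty vector and 25.1 and 22.2 with RUNX1::ERG.

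SPRY4 (NCBI gene 81848, chromosome 5, 141689992 to 141706020) encodes a sprouty protein that dampens the passage of receptor signals to RAS and RAF. Its promoter is shown as that of the one gene called lower. The 250 bases before the RefSeq start lie on the minus strand at chr5:142324248-142324497 of GRCh38.p14, printed in the direction of transcription, and capitals mark a match to the EGR consensus GCGNGGGCG on the other strand.
SPRY4: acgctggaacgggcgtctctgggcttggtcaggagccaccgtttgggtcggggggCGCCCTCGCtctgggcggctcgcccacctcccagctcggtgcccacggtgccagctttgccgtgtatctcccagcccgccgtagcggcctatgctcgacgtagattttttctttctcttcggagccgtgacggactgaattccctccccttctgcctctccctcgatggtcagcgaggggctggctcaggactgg
The match begins 195 bases before the start. The EGR consensus was present in 5 of the 12 windows, for EGR1, EGR2, SPRY1, SPRY2 and SPRY4, and in 9.43% of all windows. The ETS letters CCGGAAG were found in 1 of the 12 windows, for SPRY1, against 10.3% of all windows, and the RUNX letters TGTGGT in 0 of 12, against 13.1%. Both strands were searched, and no match to one motif shared bases with a match to another. DUSP4, DUSP5 and EGR3 had no window, and other spellings of the ETS and RUNX sites were not searched. The counts therefore do not show whether such sites are absent from these genes. These matches describe the letters in short windows and carry no measure of binding.

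SPRY4 was at 39.6 and 36.7 normalized CPM under empty vector and 19.2 and 19.3 with RUNX1::ERG. Both groups were tight and did not overlap. The means were 38.2 ± 2.11 and 19.2 ± 0.0597 (SD, n = 2), and the log2 fold change was -0.99 (SE 0.18, 95% interval -1.38 to -0.60, edgeR adjusted p = 0.011). With a library left out the value stayed between -1.05 and -0.94, and the call was lost in 1 case, without RUNX1::ERG replicate 1 (adjusted p = 0.067). SPRY4-AS1, a noncoding gene on the opposite strand, overlaps the SPRY4 span but shares 0 exon bases with it.

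SPRED1 (NCBI gene 161742, chromosome 15, 38545037 to 38649450) encodes a partner of neurofibromin that brings this RAS inactivator to the membrane. It was at 35.5 and 32.4 normalized CPM under empty vector and 22.2 and 27.4 with RUNX1::ERG, so both RUNX1::ERG libraries were lower. The log2 fold change of -0.45 (SE 0.19) had an unadjusted p of 0.036 and did not pass adjustment over all genes (edgeR adjusted p = 0.23). SPRY2 (NCBI gene 10253, chromosome 13, 80910111 to 80915261), the most studied sprouty gene, was at 5.03 and 5.37 against 4.39 and 4.34 normalized CPM, with a log2 fold change of -0.25 (95% interval -0.83 to 0.32, edgeR adjusted p = 0.69). Its groups did not overlap, yet the gap was small beside the spread that edgeR estimates for genes of this level. SPRY1 (NCBI gene 10252, chromosome 4, 124317950 to 124324915) was close to the detection limit, with 0 and 14 counts against 22 and 16. Its log2 fold change of 1.22 (SE 1.00, edgeR adjusted p = 0.59) reached 7.14 (adjusted p = 0.042) without empty vector replicate 2, where it was set against a library with a count of 0 and has no fixed size.

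Over the family, the summed normalized CPM of the 4 SPRY and SPRED genes was 80.2 and 74.6 with the empty vector and 46.0 and 51.2 with RUNX1::ERG. SPRY4 and SPRED1 held most of that sum. Across all 9 tested genes the groups did not overlap in 7, with 3 higher (DUSP4, DUSP5 and SPRY1) and 4 lower (EGR3, SPRY2, SPRY4 and SPRED1). Among all tested genes 47.2% did not overlap, 25.1% higher and 22.1% lower. DUSP4 and SPRY1 each passed the filter on low counts in 2 RUNX1::ERG libraries but in only 1 empty vector library. Their place among the tested genes thus depended on the group where they were high, and the count of higher genes is a description only.

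**Figure D2:**
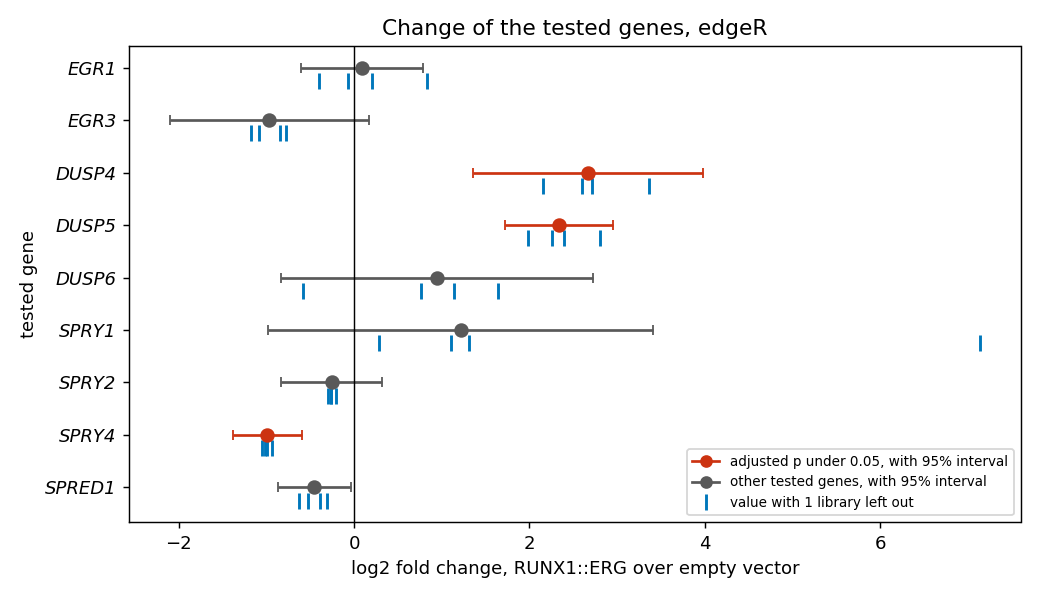
The log2 fold change of RUNX1::ERG over empty vector for the 9 tested genes, with 95% intervals (bars), called genes in red and others in grey, and blue ticks for the value with 1 library left out. DUSP4 and DUSP5 lie on the right and SPRY4 on the left under each omission, while EGR1 and DUSP6 change sign and SPRY1 runs from 0.28 to 7.14.

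Levels of different genes were compared per length, as normalized CPM per kilobase of exon. With the empty vector EGR1 was first at 11.9 ± 6.78 (SD, n = 2), followed by SPRY4 at 7.25 ± 0.400, SPRED1 at 4.63 ± 0.301, DUSP5 at 1.79 ± 0.696 and SPRY2 at 1.62 ± 0.0756. The ranges of EGR1 and SPRY4 overlapped, as did those of DUSP5 and SPRY2, whereas SPRY4 and SPRED1 were separate. EGR3 followed at 0.145, and DUSP6, EGR2, SPRY1 and DUSP4 were all under 0.04 with each range overlapping the next. With RUNX1::ERG, DUSP5 stood second at 9.07 ± 0.735, between EGR1 at 12.7 and SPRY4 at 3.65 ± 0.0114, and its range touched neither. SPRY4 no longer stood apart from SPRED1, at 3.38 ± 0.506. DUSP4, the last with the empty vector, stood next after SPRY2 at 0.124, with a range that overlapped that of DUSP6. The exon lengths come from GENCODE protein-coding transcripts and may differ from those used for counting.

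**Figure D3:**
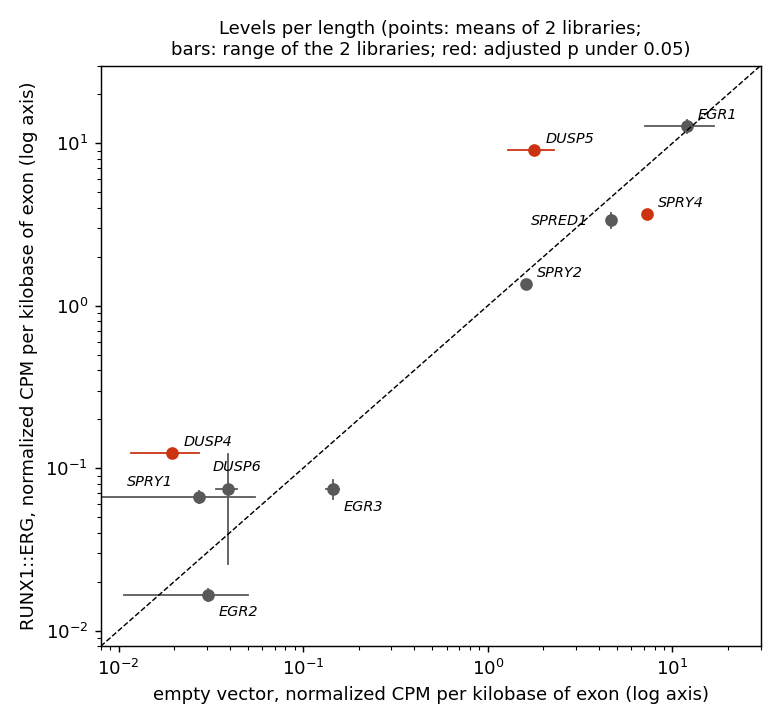
Mean level of each gene per kilobase of exon with RUNX1::ERG (vertical, log axis) against the empty vector (horizontal, log axis), where bars span the 2 libraries, red marks called genes and the dashed line marks equal levels; the SPRY1 bar reaches 0 and leaves the axis. DUSP5 and DUSP4 lie far above the line, SPRY4 below it and EGR1 on it, with a wide horizontal bar for EGR1.

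The genes whose pattern over the 4 libraries was most like that of each called gene were found by the root mean square difference of log2 CPM, centred on the mean of the libraries, among genes with a mean of at least 1 CPM. For DUSP5 these were WNT7A, RTL9 and RLN3, at 0.08, 0.09 and 0.15. For DUSP4 they were KLHL6, SYTL3 and PLCH1, at 0.03, 0.11 and 0.14. For SPRY4 they were CTSH, MAGEF1 and CYP2S1, at 0.03, 0.04 and 0.05. KLHL6, for example, was at 7.89 and 3.96 normalized CPM under empty vector and 32.2 and 32.9 with RUNX1::ERG, and CTSH was at 80.0 and 73.0 against 36.5 and 38.7. With 4 libraries many genes share such a shape, so this is a description only.

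Of the 24 relay genes from RAS to the ERK-activated kinases, 22 were tested and 0 passed an adjusted p of 0.05 in edgeR, while 4 had an unadjusted p under 0.05 and the DESeq2 Wald test called RRAS (adjusted p = 0.02). MAPK3, which encodes ERK1, was at 31.7 ± 5.77 normalized CPM with the empty vector and 35.4 ± 5.11 with RUNX1::ERG (SD, n = 2), a log2 fold change of 0.16 (edgeR adjusted p = 0.76). The MEK genes MAP2K1 and MAP2K2 had log2 fold changes of -0.26 and 0.18, and the RAF genes ARAF and BRAF of -0.02 and 0.12, all with adjusted p-values of 0.46 or more from edgeR. The sign of the ARAF, BRAF and MAPK3 values, all close to 0, changed with the choice of libraries, and that of ARAF also with scaling by library totals. The largest values of the list were RRAS at 0.94 (adjusted p = 0.092) and RPS6KA2 at -0.84 (adjusted p = 0.33). Neither was called by edgeR with all libraries, the filter on low counts and no block. RRAS was called under the replicate block (adjusted p = 0.0084), without the filter on low counts (0.0051), and without empty vector replicate 1 (0.00049) or RUNX1::ERG replicate 2 (0.012). Transcript levels of kinases do not report their phosphorylation, which was not measured here.

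Genes that switch RAS on or off were examined next. Of 16 adaptors and RAS activators, all tested, 1 was called higher and 0 lower, and the median log2 change was 0.09. That share of 6.25% was near the 4.79% called among all tested genes. Over all pathway lists together, 7.62% of the tested genes were called. RASGRP3, a RAS exchange factor activated by diacylglycerol, was at 2.08 and 1.39 normalized CPM with the empty vector and 6.92 and 6.25 with RUNX1::ERG. Its log2 fold change was 1.93 (SE 0.31, edgeR adjusted p = 0.006). It shares 1469 exon bases with FAM98A on the opposite strand, so part of its counts could belong to that gene. RASGRP1, at -0.90 (adjusted p = 0.22), was the largest fall of the list and was not called.

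Of 16 GTPase-activating proteins and other brakes, 15 were tested, and 2 were called higher and 0 lower. That was 13.3% of those tested, against 4.79% of all tested genes. The median log2 fold change was 0.38, against 0.00 over all tested genes. DOK2, an adaptor that recruits RAS GTPase-activating protein below BCR::ABL1 and other kinases, was at 4.20 and 3.72 normalized CPM with the empty vector and 26.0 and 18.2 with RUNX1::ERG. Its log2 fold change was 2.48 (SE 0.25, edgeR adjusted p = 4.0e-04), close to that of DUSP5, and it was called with each library left out. RASA4, a calcium-responsive RAS GTPase-activating protein, was at 1.63 and 1.05 against 4.03 and 3.80, a log2 fold change of 1.55 (edgeR adjusted p = 0.029, and 0.15 without RUNX1::ERG replicate 1). RASA4 has a near-identical copy, RASA4B, with 28 and 37 counts against 190 and 96, and shares 2595 exon bases with a further gene on the same strand, so its counts are uncertain.

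The phosphatase and sprouty relatives outside the 10 genes showed no call. Of 9 other MAP kinase phosphatase genes 8 were tested, with log2 fold changes from -0.37 for DUSP10 to 0.74 for DUSP8 and 1 unadjusted p under 0.05 in edgeR. The DESeq2 Wald test called 0 of the 8 as well. DUSP8 was called under the replicate block (adjusted p = 0.033) and without empty vector replicate 1 (0.00042) or RUNX1::ERG replicate 2 (0.014). SPRED2, at 97.4 and 75.1 normalized CPM against 74.4 and 69.5, had a log2 fold change of -0.26 (adjusted p = 0.49), and SPRED3 one of 0.46 (adjusted p = 0.72). Of the 9 EGR partners and serum response factors, 8 were tested and 0 called by edgeR, with 1 unadjusted p under 0.05 and 0 calls by DESeq2, from -0.30 for ELK3 to 0.51 for MRTFA (adjusted p = 0.16). MRTFA was called under the replicate block (adjusted p = 0.046).

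Of 18 other immediate-early genes 16 were tested, edgeR called 2 higher and 0 lower, 5 had an unadjusted p under 0.05, and the median log2 change was 0.23. The share called by edgeR was 12.5%, against 4.79% of all tested genes. DESeq2 called 3, the same 2 and ZFP36, which encodes an mRNA decay factor and had a log2 fold change of 0.67 (edgeR adjusted p = 0.11). BTG2, an antiproliferative gene induced by growth factors and by p53, was at 52.6 and 57.1 normalized CPM under empty vector and 140 and 131 with RUNX1::ERG, a log2 fold change of 1.30 (SE 0.16, edgeR adjusted p = 0.00099). NR4A2, an orphan nuclear receptor of the immediate-early class, was at 6.28 and 5.59 against 12.6 and 13.4, a log2 fold change of 1.13 (edgeR adjusted p = 0.017, and 0.077 without RUNX1::ERG replicate 1). FOS, the classic companion of EGR1, was at 1.13 and 2.10 against 1.95 and 2.39, and was not called (edgeR adjusted p = 0.64). ATF3 had the largest fall, at -1.22 (adjusted p = 0.24), which turned to 0.24 without empty vector replicate 1 and was called at -1.93 without empty vector replicate 2 (adjusted p = 3.7e-14), and also without the filter on low counts (8.6e-07). Of 12 later ERK output genes 11 were tested and 0 called by edgeR, with 3 unadjusted p-values under 0.05 and a range from -1.55 for LIF (adjusted p = 0.17) to 0.73 for PLAUR (adjusted p = 0.095). PLAUR was called by the DESeq2 Wald test (adjusted p = 0.032), under the replicate block (0.025), without the filter on low counts (0.049) and without empty vector replicate 1 (0.04).

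**Figure D4:**
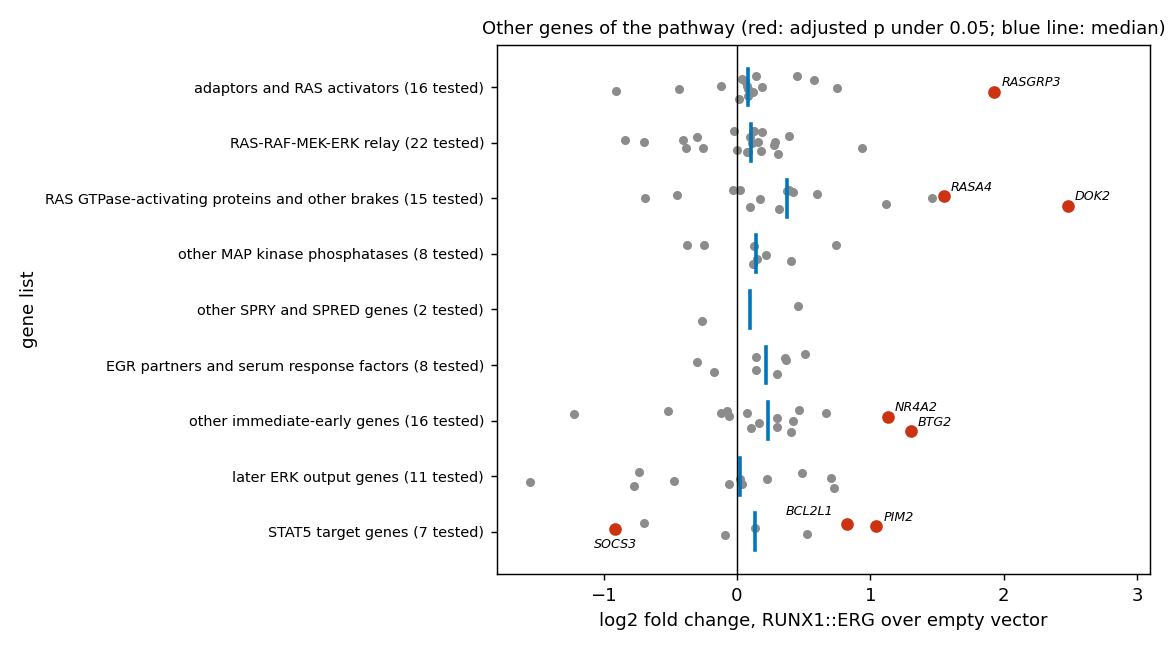
The log2 fold change of RUNX1::ERG over empty vector for the tested genes of each pathway list, with called genes named in red, others in grey and the list median as a blue line; vertical scatter within a row only separates points. Most points lie near 0, and RASGRP3, DOK2, RASA4, NR4A2 and BTG2 lie to the right as called genes of the ERK lists, with the STAT5 targets in the last row.

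Most megakaryocytic markers were higher with RUNX1::ERG, as DUSP4 and DUSP5 were, while the erythroid markers and those of other cell types went in both directions. Of 9 megakaryocytic markers 7 were tested and 6 called higher, while GP1BB had a count of 0 in all libraries and GP9 at most 2. The summed level of the 9 was 74.3 to 85.1 normalized CPM with the empty vector and 433 to 494 with RUNX1::ERG. TUBB1 held most of the empty vector sums, at 57.85 and 70.99, against 132.2 and 142.7 with RUNX1::ERG. It shares 1180 exon bases with ATP5F1E on the opposite strand, so part of its counts could belong to that gene. Of 12 markers of T cells, B cells, monocytes and fibroblasts 7 were tested, and CD14, LYZ and COL1A1 were called higher. Their summed level was 48.3 to 52.8 against 67.8 to 69.4 normalized CPM, with MS4A1 at 0 in all libraries and CD2, CSF1R and DCN at most at 18 counts. Among all tested genes 3.64% were called higher. The part of either set of markers in the DUSP and SPRY4 results was not tested.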

How the data were processed

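RNA of 4 K562 libraries, enriched for poly(A), was sequenced as paired-end reads. Raw gene counts were deposited by the authors, 1 file for each library, and their processing notes name hg19, HISAT2 2.2.1 and featureCounts 2.0.1 without settings, so antisense genes and near-identical copies are uncertain. Gene numbers were joined to a RefSeq table of GRCh38.p14, which matched 92.2%. Positions and exon lengths are from GENCODE v44 on GRCh37, promoter windows from RefSeq on GRCh38.p14.

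Counts were fitted in R 4.3.3 with edgeR 4.0.16 (TMM, filter on low counts, quasi-likelihood test, Benjamini-Hochberg adjustment over 15394 genes, threshold 0.05). The standard error is the log2 fold change divided by the square root of F. All samples entered by their labelled group. The procedure was tested on simulated counts of 15394 genes, 200 of them changed, with 1 dispersion of 0.04 for all genes. It called 37% of the genes changed by 1 log2 unit and 97% of those changed by 2. False calls numbered 7 and 14. A gene that was not called may therefore still have changed by 1 log2 unit or less. Alternatives were 2 other scalings, 2 other filters, DESeq2 1.42.0, limma 3.58.1 voom, a replicate block, halved counts and omission of each library.

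The members, the pathway lists and the markers were chosen with earlier results of these data known. Named were the 10 members, RAF, MEK and ERK genes, called genes and the largest rise and fall of each list, and some of these are not reported here. FOS, ZFP36, SOCS1, SOCS2, CISH, EPOR, HBZ and the markers at or near 0 were named after their values were seen. Alike genes were the 3 nearest for each called member.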

Additional observations from a re-analysis of the deposited data

How the results depend on the processing

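DUSP5 kept its direction and its call under all 12 alternatives. DUSP4 and SPRY4 kept direction in every one that tested them and their calls except where a library was left out, as given with each gene. DUSP4 was not tested where every library had to reach 10 counts. EGR2 had no value in the edgeR fit to compare with. Of the 10 genes, between 1 (without RUNX1::ERG replicate 1) and 5 (without empty vector replicate 2) were called when a library was left out, against 3. Such a fit leaves 1 library in a group, which is assumed to vary like the other group.

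Over all genes the number called was 1500 without a filter, 1194 with the DESeq2 Wald test and 1733 with the replicate block, against 737, and 286 to 1336 with a library left out. In the pathway lists it was 14 without a filter and 16 with the replicate block, against 8, and 5 to 19 with a library left out. The cause was not tested. The deviations of same-numbered libraries correlated with r = 0.271 over genes, the labels name no batch or day shared by a number, and the block changed no call among the 10 genes.

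Values that changed sign were those of ARAF (0.02 with scaling by library totals, -0.15 to 0.08 with a library left out), BRAF (-0.07 to 0.33), MAPK3 (-0.02 to 0.35), ATF3 (-1.93 to 0.24), EGR1 (-0.40 to 0.83) and DUSP6 (-0.58 to 1.64), all with a library left out.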

Other observations

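BCR::ABL1 also signals through STAT5, and genes known as STAT5 targets were examined beside the ERK output. Of 8 such genes 7 were tested, 2 were called higher and 1 lower by edgeR (4 in all by DESeq2, with SOCS2 added), with a median log2 fold change of 0.14. The share called by edgeR was 42.9% of a short list chosen with earlier results known, against 4.79% of all tested genes. PIM2, a kinase that promotes survival, was at 148 and 165 normalized CPM under empty vector and 338 and 307 with RUNX1::ERG, a log2 fold change of 1.04 (SE 0.15, edgeR adjusted p = 0.0034). BCL2L1, which encodes the survival protein BCL-XL, was at 236 and 215 against 419 and 380 normalized CPM, a log2 fold change of 0.83 (edgeR adjusted p = 0.011, and 0.083 without RUNX1::ERG replicate 1). It shares 1735 exon bases with ABALON on the opposite strand.

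SOCS3, a feedback inhibitor of cytokine receptors, was at 46.7 and 40.3 normalized CPM under empty vector and 26.9 and 19.4 with RUNX1::ERG, a log2 fold change of -0.91 (edgeR adjusted p = 0.031). Its call was lost with scaling by library totals (adjusted p = 0.055) and without RUNX1::ERG replicate 2 (0.13). Among the 10 members and all pathway lists, edgeR called only SPRY4 and SOCS3 lower. Those called higher were DUSP4, DUSP5, DOK2, RASA4, RASGRP3, BTG2, NR4A2, PIM2 and BCL2L1. In the STAT5 list SOCS1 and CISH had log2 fold changes of 0.52 and 0.14 and SOCS2 one of -0.70, none called by edgeR.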
